A study of Mus musculus with 6 samples.

Results

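The visual cycle genes described here are 9 genes of vitamin A chemistry in the eye, chosen by name as genes whose products make, reduce, oxidise, bind or take up retinoids around photoreceptors. Of these 9 genes, 8 were among the 11339 genes measured in P14 mouse retina, and *Rpe65* was not analysed here. They were grouped by the step at which each is best known to act, with *Rbp3*, *Rdh12* and *Rdh8* at the photoreceptor step, *Rlbp1* and *Rdh10* at the Müller glia step, *Rdh5* and *Stra6* (with *Rpe65*) at the pigment epithelium step, and *Retsat* as a broadly expressed gene. These steps are not exclusive, since *Rlbp1* and *Rdh10* are known to be expressed in the pigment epithelium as well.

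Light turns the 11-cis-retinal bound to an opsin into all-trans-retinal, which the photoreceptor reduces to retinol. Retinol leaves the cell and is carried through the extracellular matrix to the retinal pigment epithelium (RPE), where it is esterified, isomerised, oxidised back to 11-cis-retinal and returned to the outer segments. A further route of supply, mainly to cones, is known to run through Müller glia.

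RNA of whole retinas from 3 *Mll1KO* and 3 WT mouse samples at P14 was sequenced, and each sample was pooled from 2 retinas. *Mll1KO* mice were homozygous for floxed alleles of *Mll1* (MLL1 fl/fl) and carried Chx10-Cre, a transgene in which Cre recombinase is driven in retinal progenitor cells. WT mice were labelled wild type, with no floxed allele or Cre transgene named, and both groups were of strain C57Bl6/J. The authors deposited RPKM, in which the reads of a gene are divided by its length and by the reads of the library, so that levels of different genes can be set side by side. Chx10-Cre acts in the progenitors of retinal neurons and Müller glia, and the retinas were dissected without sorting of cells, so that every value is a mean over all cells in the dissected tissue. Samples of a genotype were biological replicates by the study's methods, and the p-values measure the spread between these samples.

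The library totals by which RPKM was divided were 23836033, 19777205 and 19323512 reads for WT samples a, b and c. For *Mll1KO* samples a, b and c they were 23348923, 19855963 and 17961097. These totals were recovered from RPKM and need not be all reads sequenced. Values of single samples are given below in the order a, b, c of each genotype. *Kmt2a*, the gene that was deleted and is also named *Mll1* (ENSMUSG00000002028, chr9:44803355-44881296, minus strand, GRCm38), had an RPKM of 36.1, 36.9 and 34.6 in WT and of 22.9, 20.4 and 22.3 in *Mll1KO* samples a, b and c. All *Mll1KO* samples lay below all WT samples, at 60.9% of the WT mean. The log2 fold change was -0.69, with a standard error (SE) of 0.05 (limma adjusted p = 2.77e-05). RPKM covers all exons of *Kmt2a*, also those outside the floxed segment, so that this value is no measure of how much of the gene was deleted.

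The comparison of genotypes used limma over all 11339 genes, on values of log2(RPKM + 1), and called a gene at an adjusted p below 0.05. Adding 1 to each RPKM shrinks the fold changes of genes with low RPKM. Of the 8 measured visual cycle genes, 4 passed it, against 23.3% of all genes. *Rbp3*, *Rdh12* and *Rdh8* were higher in *Mll1KO* relative to the library total (3 of 8, against 8.81% of all genes called higher), although *Rdh12* and *Rdh8* were lower and *Rbp3* was not called when the rod genes were set to an equal sum in each library. *Rdh10* was lower (1 of 8, against 14.5% of all genes called lower), and it was called lower under each of the 4 scalings used. With rod scaling, however, 5 of the 8 members were called lower, against 82.3% of all genes. In 5 of 8 genes the values of the genotypes did not overlap, against 41.1% of all genes, and the median log2 fold change of the 8 genes was 0.16, against -0.03 over all genes (0.096 with a pseudocount of 5, and -0.14 against -0.29 with rod scaling). Only *Rbp3* was called with any 1 library left out. The number of called members was 1 without WT sample b, WT sample c, *Mll1KO* sample a or *Mll1KO* sample c. Of all genes 15.0%, 19.2%, 22.4% and 15.5% were called in these fits. Without WT sample a or *Mll1KO* sample b 3 members were called, against 17.4% and 17.2% of all genes.

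Over all genes, 999 were called higher and 1644 lower, so that 37.8% of the 2643 calls were higher. This share was 51.4% of 2432 calls when libraries were scaled by trimmed means of M-values (TMM) and 53.1% of 2402 calls when they were scaled by median ratios.

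The members spanned a wide range of levels. In WT the order by mean RPKM was *Rbp3* at 914 ± 11.8, *Rlbp1* at 163 ± 7.63, *Rdh12* at 123 ± 6.38, *Rdh8* at 91.5 ± 2.46, *Rdh10* at 21.3 ± 1.08, *Rdh5* at 4.76 ± 1.22, *Stra6* at 3.79 ± 0.463 and *Retsat* at 2.93 ± 0.151 (all SD, n = 3). Of neighbours in this order, the ranges of *Rdh5* and *Stra6* overlapped, and those of the other neighbours did not. *Rbp3* was the most abundant member by 5.62 times over *Rlbp1*, and ranked 15 among all genes by WT mean RPKM. In *Mll1KO* the first 6 places were taken by the same genes, with *Rbp3* at 1199 ± 36.7 (SD, n = 3), 6.90 times *Rlbp1* at 173.8 ± 6.52 (SD, n = 3). The last 2 places were exchanged in *Mll1KO*, where *Retsat* at 3.46 ± 0.285 and *Stra6* at 3.43 ± 1.36 (SD, n = 3) overlapped.

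**Figure D1:**
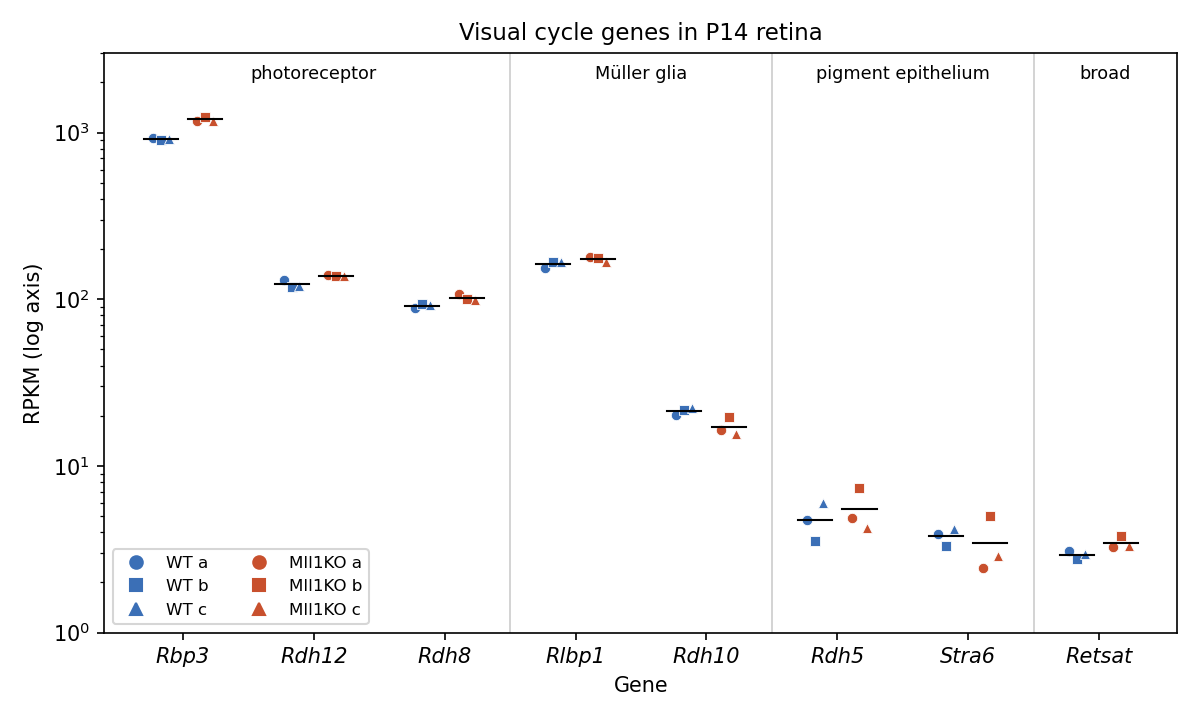
RPKM of the 8 measured visual cycle genes (log axis) in each of 3 WT (blue) and 3 *Mll1KO* (red) samples, with symbols for samples a, b and c and a black line at each genotype's mean. The photoreceptor genes lie between 88.9 and 1242 with no overlap of genotypes, while *Rdh5* and *Stra6* lie between 2.42 and 7.33 with overlapping genotypes.

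*Rbp3* (ENSMUSG00000041534, chr14:33954003-33964216, plus strand) encodes interphotoreceptor retinoid-binding protein, which photoreceptors secrete and which carries retinoids between photoreceptors, Müller glia and the RPE. Its RPKM was 925, 902 and 916 in WT and 1176, 1242 and 1181 in *Mll1KO* samples a, b and c. The WT samples lay close together, and the lowest *Mll1KO* sample was well above the highest WT sample. The mean was 31.2% higher in *Mll1KO*, with a log2 fold change of 0.39 with an SE of 0.05 (limma adjusted p = 0.000846), and at least 93413 reads stood behind each value. In retina samples such as these, more photoreceptors among the cells and more RNA of the gene per photoreceptor cannot be told apart.

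*Rdh12* (ENSMUSG00000021123, chr12:79208914-79222665, plus strand) encodes a retinol dehydrogenase of photoreceptor inner segments, which reduces retinal and other reactive aldehydes. Its RPKM was 130.3, 118 and 120.4 in WT and 139, 137 and 138 in *Mll1KO* samples a, b and c. The *Mll1KO* samples were nearly equal, and WT sample a stood nearest to them without overlap. The mean was 12.2% higher in *Mll1KO*, with a log2 fold change of 0.17 with an SE of 0.04 (limma adjusted p = 0.0245). The call was lost without WT sample b, WT sample c or *Mll1KO* samples a, b or c in turn, at limma adjusted p values of 0.1, 0.0697, 0.0543, 0.0576 and 0.0776, and these values ranged from 0.00723 to 0.127 over all alternatives.

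*Rdh8* (ENSMUSG00000053773, chr9:20818503-20826117, plus strand) encodes the retinol dehydrogenase of outer segments, which reduces all-trans-retinal released from bleached opsin. RPKM of *Rdh8* was 88.9, 93.7 and 92.0 in WT and 107, 99.8 and 98.6 in *Mll1KO* samples a, b and c. The genotypes did not overlap, and *Mll1KO* sample a was the highest of the 6. The mean was 11.4% higher in *Mll1KO*, with a log2 fold change of 0.15 with an SE of 0.04 (limma adjusted p = 0.0342). With WT samples a, b and c left out in turn the limma adjusted p of *Rdh8* was 0.0869, 0.0627 and 0.0676, and with *Mll1KO* samples a, b and c left out 0.0881, 0.0581 and 0.0516, so that the call needed all 6 libraries, and its adjusted p ranged from 0.0125 to 0.124 over all alternatives.

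Markers of rods and cones, listed without any of the 9 genes, give the setting of these values. Of 19 rod markers measured, 13 were called higher and 1 lower in *Mll1KO*, against 8.81% and 14.5% of all genes, with a median log2 fold change of 0.25, against -0.03 over all genes, and the median was -0.044, against -0.29, with libraries scaled to the sum of these same genes. The summed RPKM of the rod markers was 20013, 19009 and 19482 in WT and 23903, 24430 and 23644 in *Mll1KO* samples a, b and c. The highest log2 fold change of the rod list was 0.48 for *Pde6a*, a subunit of the rod phosphodiesterase, and the lowest was -0.36 for *Nr2e3*, a rod transcription factor (limma adjusted p = 0.000101 and 0.00946).

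Of 15 cone markers measured, 9 were called higher and 1 lower, against 8.81% and 14.5% of all genes, with a median of 0.27, against -0.03 over all genes, which was -0.0072 against -0.29 with libraries scaled to rod genes. *Gnb3*, a transducin subunit and the most abundant gene of the cone list by WT mean, was at an RPKM of 199 ± 5.72 in WT against 197 ± 7.32 in *Mll1KO* (SD, n = 3 each). *Guca1a*, a guanylate cyclase activator found in rods as well, was the highest of the cone list at a log2 fold change of 1.55, and *Opn1sw*, the short-wavelength opsin, was the lowest at -0.44 (limma adjusted p = 1.43e-05 and 0.00121).

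With the rod markers set to an equal sum in each library, the median over all genes shifted from -0.03 to -0.29 (log2 fold change). On that scale *Rbp3* was at 0.092 (limma adjusted p = 0.122, within a range of 6.97e-06 to 0.122 over the alternatives), *Rdh12* at -0.13 and *Rdh8* at -0.14, so that each of the 3 photoreceptor members lay above the median of all genes and *Rdh12* and *Rdh8* fell relative to the rod sum (limma adjusted p = 0.0204 and 0.0295). On the scale of library totals *Rbp3* at 0.39 was above the rod median of 0.25, and *Rdh12* and *Rdh8* at 0.17 and 0.15 were below it. The difference between these genes was not tested.

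**Figure D2:**
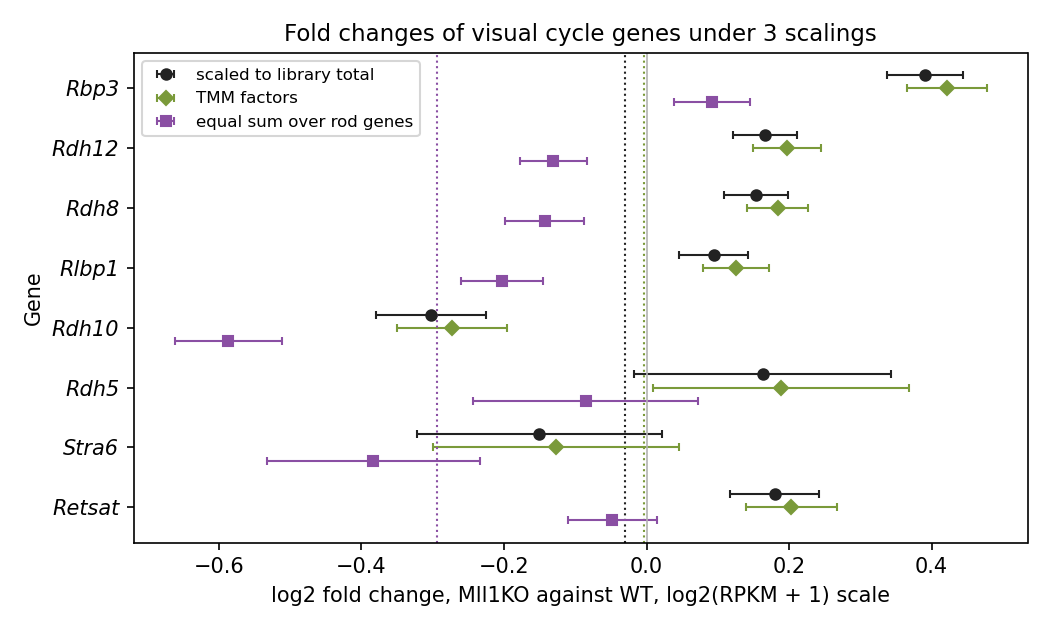
Log2 fold change (*Mll1KO* against WT, points) with its standard error (bars) for the 8 measured visual cycle genes, with libraries scaled to their totals, by TMM or to the sum of 19 rod markers, and with dotted lines at the median of all genes under each scaling. *Rdh10* is below 0 under all 3 scalings shown, *Rbp3* is above 0 under all 3, and *Rdh12* and *Rdh8* change from 0.17 and 0.15 to -0.13 and -0.14 with rod scaling.

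The genes whose pattern over the 6 libraries was nearest to that of *Rbp3*, the member with the largest increase, were *Timm44*, *Gas7* and *Oxr1*. Likeness was measured as the root mean square distance of 6 log2(RPKM + 1) values, each centred on the gene's WT mean, and was 0.02, 0.03 and 0.03 for these genes. *Timm44*, at an RPKM of 29.0, 29.5 and 29.7 in WT and 37.7, 40.2 and 38.4 in *Mll1KO*, shared with *Rbp3* the highest value in *Mll1KO* sample b. The choice used all 6 values, so that a shared order and similar fold changes follow from it and are no separate support. The log2 fold changes of *Timm44*, *Gas7* and *Oxr1* were 0.39, 0.42 and 0.40 (limma adjusted p = 0.000167, 0.000136 and 0.000154). With rod scaling they were 0.097, 0.14 and 0.12, and *Timm44* was not called there (limma adjusted p = 0.0824, within a range of 2.07e-05 to 0.0824 over the alternatives).

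The promoters of the 3 photoreceptor members, which were higher together relative to library totals, are printed to show where they share or lack a short motif of photoreceptor genes, and each is the RefSeq window of GRCm38.p6 from 250 bases before to 50 bases after the gene's start. TAATCC, the core sequence bound by homeodomain factors of the OTX family such as CRX, was searched on both strands (as TAATCC and GGATTA). At least 1 match was present in 7.06% of all 32851 promoter windows. Of the 9 visual cycle genes 8 matched the table by symbol, with 11 windows (*Rdh10* had no entry), and 2 of the 11 windows held the motif, those of *Rbp3* and *Rpe65*. In *Rbp3* (chr14:33953753-33954052, plus strand) it lies on the opposite strand and starts 69 bases before the gene's start, while the windows of *Rdh12* (chr12:79208663-79208962, plus strand) and *Rdh8* (chr9:20818244-20818543, plus strand) do not hold these letters. Capitals mark the motif.
Rbp3: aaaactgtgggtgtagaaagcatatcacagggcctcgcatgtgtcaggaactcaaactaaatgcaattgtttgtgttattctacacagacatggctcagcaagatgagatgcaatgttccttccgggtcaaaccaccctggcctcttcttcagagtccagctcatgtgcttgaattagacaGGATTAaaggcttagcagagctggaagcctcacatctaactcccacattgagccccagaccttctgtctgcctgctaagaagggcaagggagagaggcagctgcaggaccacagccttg
Rdh12: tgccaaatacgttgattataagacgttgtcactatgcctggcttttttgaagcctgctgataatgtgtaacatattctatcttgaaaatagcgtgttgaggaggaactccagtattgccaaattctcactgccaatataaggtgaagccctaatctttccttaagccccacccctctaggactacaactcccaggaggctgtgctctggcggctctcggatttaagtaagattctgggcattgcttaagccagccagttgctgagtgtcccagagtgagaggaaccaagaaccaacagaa
Rdh8: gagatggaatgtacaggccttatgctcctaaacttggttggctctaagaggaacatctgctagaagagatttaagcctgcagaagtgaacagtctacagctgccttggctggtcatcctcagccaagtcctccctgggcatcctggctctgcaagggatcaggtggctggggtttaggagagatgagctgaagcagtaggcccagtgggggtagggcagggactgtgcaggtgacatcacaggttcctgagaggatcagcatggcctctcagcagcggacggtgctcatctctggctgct

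*Rlbp1* (ENSMUSG00000039194, chr7:79374870-79387048, minus strand) encodes CRALBP, which binds 11-cis-retinoids in Müller glia and in the RPE. Its RPKM was 154, 166 and 168 in WT and 179, 176 and 167 in *Mll1KO* samples a, b and c. The genotypes overlapped, since *Mll1KO* sample c lay below WT sample c. The log2 fold change was 0.09 (95% interval -0.01 to 0.20, limma adjusted p = 0.188), which does not show that the genotypes were alike. With rod scaling it was -0.20 (limma adjusted p = 0.00579, within a range of 0.00579 to 0.414 over the alternatives), above the median of all genes of -0.29.

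*Rdh10* (ENSMUSG00000025921, chr1:16105774-16133734, plus strand) encodes a dehydrogenase that oxidises retinol to retinal, the step before retinoic acid synthesis, and is known from Müller glia and the RPE. RPKM of *Rdh10* was 20.1, 21.6 and 22.2 in WT and 16.4, 19.6 and 15.5 in *Mll1KO* samples a, b and c. The *Mll1KO* samples were all below the WT samples, with *Mll1KO* sample b close to WT sample a. The mean was 17.1 ± 2.16 (SD, n = 3) in *Mll1KO*, and fell by 19.5%, with a log2 fold change of -0.30 with an SE of 0.08 (limma adjusted p = 0.0202). Without WT sample b, WT sample c, *Mll1KO* sample a or *Mll1KO* sample c the call was lost, at limma adjusted p values of 0.0649, 0.0633, 0.0552 and 0.0754, the highest over all alternatives, while it was 0.0313 without WT sample a and 0.00212 without *Mll1KO* sample b, and the lowest over all alternatives was 4.23e-05. The log2 fold change was between -0.40 and -0.24 with each library left out in turn.

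Genes with a pattern near that of *Rdh10*, the member with the largest decrease, were *Tubb3*, *Tspan2* and *Dgkh*, at distances of 0.05, 0.06 and 0.06 by the measure used for *Rbp3*. *Tubb3*, a neuronal tubulin, was at an RPKM of 133, 138 and 144 in WT and 108, 118 and 101 in *Mll1KO* samples a, b and c, and like *Rdh10* it was lowest in *Mll1KO* sample c and highest in WT sample c. As for *Rbp3*, the shared order and similar fold changes follow from the choice and are no separate support. The log2 fold changes of *Tubb3*, *Tspan2* and *Dgkh* were -0.34, -0.26 and -0.33 (limma adjusted p = 0.00234, 0.0229 and 0.00987). That of *Tspan2* was between -0.31 and -0.21 with each library left out in turn. *Tspan2* had only 90 reads in the library with the fewest, and its call was lost without WT sample b, WT sample c, *Mll1KO* sample a or *Mll1KO* sample c (by limma, adjusted p = 0.068, 0.0742, 0.0516 and 0.0839, within a range of 0.000164 to 0.0839 over the alternatives).

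Of 24 Müller glia markers 23 were measured (*Slc7a10* was not analysed here), and 13 were called higher and 2 lower, against 8.81% and 14.5% of all genes. Their median log2 fold change was 0.24, against -0.03 over all genes, and -0.014 against -0.29 with libraries scaled to rod genes. *Glul*, glutamine synthetase and the most abundant of them, was at 526 ± 28.3 in WT against 729 ± 12.3 in *Mll1KO* (SD, n = 3 each), a log2 fold change of 0.47 with an SE of 0.05 (limma adjusted p = 0.000317). *Clu*, clusterin, was highest at 0.68 and *Crym*, mu-crystallin, lowest at -0.98 (limma adjusted p = 0.000111 and 1.32e-05). The log2 fold changes of *Rlbp1* (0.09) and *Rdh10* (-0.30) both lay below the median of the Müller glia markers, and this difference was not tested.

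*Rdh5* (ENSMUSG00000025350, chr10:128913593-128922888, minus strand) encodes the 11-cis-retinol dehydrogenase of the RPE, and *Stra6* (ENSMUSG00000032327, chr9:58063788-58153996, plus strand) the receptor through which RPE cells take up retinol bound to plasma retinol-binding protein. The RPKM of *Rdh5* was 4.73, 3.55 and 5.99 in WT and 4.88, 7.33 and 4.22 in *Mll1KO* samples a, b and c. *Stra6* was at 3.88, 3.29 and 4.2 in WT and at 2.42, 4.98 and 2.88 in *Mll1KO* samples a, b and c. Within WT both genes were highest in sample c and lowest in sample b, within *Mll1KO* both were highest in sample b, and the genotypes overlapped for both. The coefficient of variation of *Rdh5* was 25.7% in WT and 29.9% in *Mll1KO*, and that of *Stra6* was 12.2% and 39.7%, where the median over all genes was 4.58% and 4.87%. Neither was called, at log2 fold changes of 0.16 for *Rdh5* (95% interval -0.24 to 0.57, limma adjusted p = 0.554) and -0.15 for *Stra6* (95% interval -0.54 to 0.23, limma adjusted p = 0.568). At least 197 reads of *Rdh5* and 302 of *Stra6* were present in every library, and 25.6% of the exon bases of *Rdh5* also lie in exons of *Bloc1s1* on the same strand, so that reads could be shared between those genes.

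Retinas are peeled off the pigment epithelium when they are dissected, and pieces of it can be carried over. *Pmel*, *Dct* and *Tyrp1*, genes of melanin synthesis and melanosomes that are active in pigment cells of the RPE, choroid and ciliary body, had a summed RPKM of 126.7, 35.4 and 206.7 in WT and of 32.9, 93.7 and 37.3 in *Mll1KO* samples a, b and c. WT sample c was thus the highest and *Mll1KO* sample a the lowest, and the order within each genotype was the same for all 3 genes. *Pmel*, the most abundant of the pigment genes by WT mean (though below *Dct* in WT sample b and in each *Mll1KO* sample), ranged from 15.1 to 99.4 in WT, 6.57 times from lowest to highest, and from 9.37 to 34.0 in *Mll1KO*. *Stra6* had the order of the pigment sum in both genotypes (c, a, b in WT and b, c, a in *Mll1KO*), and *Rdh5* had it in WT but was lowest in sample c in *Mll1KO*. *Rbp3* and *Retsat* had this order in *Mll1KO* but not in WT. *Rdh10* was highest in WT sample c and in *Mll1KO* sample b, so that such matches were not particular to the pigment epithelium genes.

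Of 25 RPE markers 11 were measured, with a summed RPKM of 271.6, 163 and 386.5 in WT and of 177, 303 and 182 in *Mll1KO* samples a, b and c. The most abundant was *Ttr*, transthyretin, at an RPKM of 75.1, 65.8 and 101 in WT and 54.8, 93.7 and 53.9 in *Mll1KO*. Of 10 defining markers *Pmel*, *Dct*, *Tyrp1* and *Rrh* were measured, and *Best1*, *Lrat*, *Mlana*, *Oca2*, *Slc45a2* and *Tyr* were not analysed here. The RPE sum contains the 3 pigment genes, so that its order is no separate check of the pigment sum. *Rrh*, peropsin, ranged from 9.57 to 11.8 in WT and from 10.1 to 11.4 in *Mll1KO*. The part of the pigment tissue in the values of *Rdh5* and *Stra6* was not tested beyond the fits below.

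Among the 11 RPE markers 1 was called higher and 0 lower by limma, against 8.81% and 14.5% of all genes. By limma 3 had an unadjusted p under 0.05 in either direction, against 4186 of all 11339 genes, and limma-voom called 0 lower. Their median log2 fold change was -0.02, against -0.03 over all genes. The number called lower by limma was 3 without WT sample b and 2 without *Mll1KO* sample b, against 9.08% and 10.4% of all genes. The 4 defining markers had a median of -0.56, with a lower mean in *Mll1KO* for 3 of them, and this median was -1.23 without WT sample b and -0.15 without WT sample c. The called gene was *Krt18*, a keratin, at 26.6 ± 2.79 in WT against 47.5 ± 0.199 in *Mll1KO* (SD, n = 3 each), a log2 fold change of 0.82 (limma adjusted p = 3.76e-05). *Pmel* had the lowest log2 fold change, -1.48 with an SE of 0.62 (limma adjusted p = 0.113), and passed the threshold at -2.23 without WT sample b (adjusted p = 0.0123 by limma) and at -2.03 without *Mll1KO* sample b (adjusted p = 0.0451 by limma), while it was -0.91 without WT sample c (adjusted p = 0.311 by limma, within a range of 0.00951 to 0.311 over the alternatives). Of the 25 listed RPE markers 4 stand in the retinoid pathway lists as well (*Lrat*, *Rgr*, *Rrh* and *Ttr*).

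Chosen after seeing the data, a fit with the log2 pigment sum as a term placed *Rdh5* at 0.44 with an SE of 0.10 (limma adjusted p = 0.0149, within a range of 0.0149 to 0.992 over the alternatives) and *Stra6* at 0.071 with an SE of 0.14 (limma adjusted p = 0.762). With WT sample c and *Mll1KO* sample b, the libraries with the highest pigment sum of their genotype, both left out, *Rdh5* was at 0.12 (limma adjusted p = 0.532) and *Stra6* at -0.33 (limma adjusted p = 0.0495). Without *Mll1KO* sample b alone, *Rdh5* was at -0.033 and *Stra6* at -0.39 (limma adjusted p = 0.905 and 0.0207, the latter within a range of 0.0207 to 0.960 over the alternatives), and without *Mll1KO* sample a *Stra6* was at 0.013. Without WT samples b and c in turn *Rdh5* was at 0.0041 and 0.31 (limma adjusted p = 0.992 and 0.255). In the fit with the pigment term 4 of the 11 RPE markers were called higher and 1 lower by limma, against 7.58% and 10.3% of all genes. In that fit 10 of the 11 had a log2 fold change above 0. Their median was 0.10, against -0.034 over all genes, but 3 of these 11 make up the term. *Rbp3* was at 0.41 with the pigment term and at 0.37 without the libraries highest in pigment (limma adjusted p = 0.00287 and 0.0121), and *Rdh10* was at -0.25 and -0.37 (limma adjusted p = 0.0748 and 0.00675). *Rdh12* and *Rdh8* were called in neither fit. *Rdh12* was at 0.18 and 0.16 there (limma adjusted p = 0.0515 and 0.127), and *Rdh8* at 0.13 and 0.17 (limma adjusted p = 0.124 and 0.0994).

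**Figure D3:**
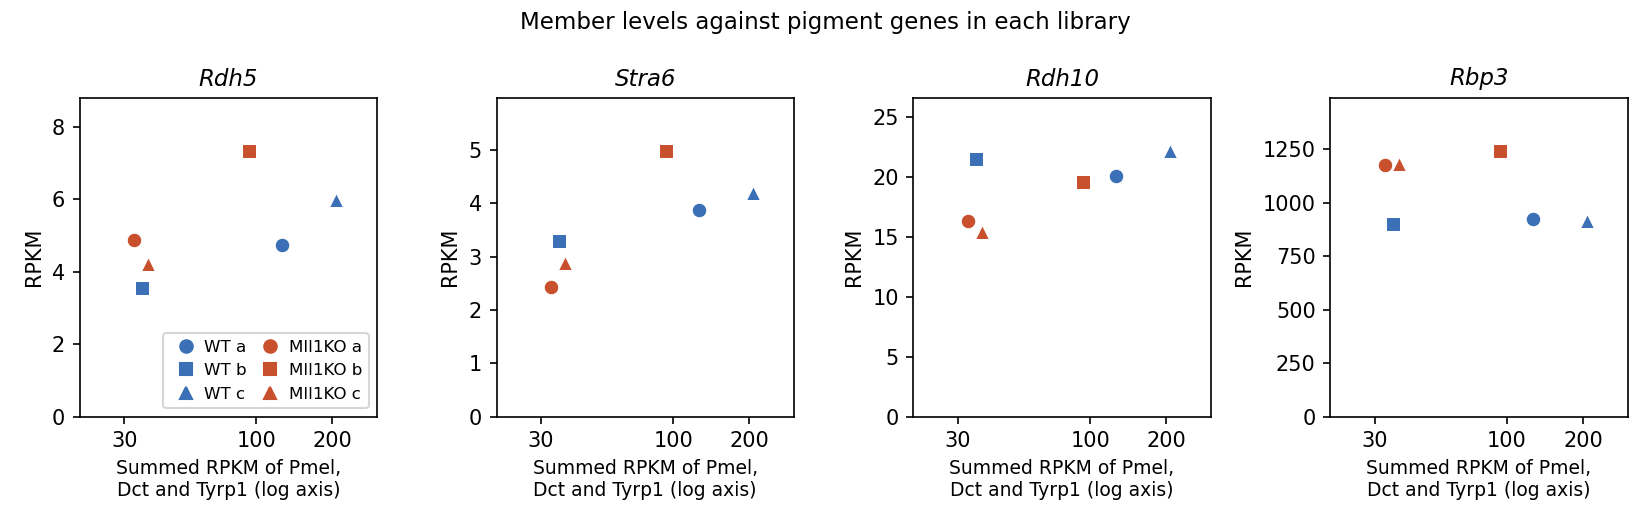
RPKM of *Rdh5*, *Stra6*, *Rdh10* and *Rbp3* (linear axes from 0) against the summed RPKM of *Pmel*, *Dct* and *Tyrp1* (log axis) in each of 3 WT (blue) and 3 *Mll1KO* (red) libraries. *Rdh5* and *Stra6* are highest in *Mll1KO* sample b, at a pigment sum of 93.7, and *Rbp3* is higher in each *Mll1KO* library than in each WT library, although no *Mll1KO* library lies above a pigment sum of 93.7.

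Other tissue that borders the retina was represented by 2 more lists. Of 10 markers of choroid and other stroma 4 were measured, with a summed RPKM of 13.5, 12.3 and 13.8 in WT and 25.3, 24.8 and 27.2 in *Mll1KO* samples a, b and c, which had the order of the pigment sum in WT (c, a, b) but not in *Mll1KO* (c, a, b against b, c, a). *Fmod*, fibromodulin and the most abundant of them, and *Col1a2*, a collagen chain, were called higher at log2 fold changes of 1.10 and 1.19 (limma adjusted p = 2.89e-06 and 1.32e-05), and *Col3a1*, a collagen chain as well, was lowest at -0.32 (limma adjusted p = 0.0998, and 0.00322 without WT sample b, within a range of 0.00258 to 0.322 over the alternatives). Of 12 ciliary body and lens markers 4 were measured. By limma 1 was called higher and 0 lower, against 8.81% and 14.5% of all genes. By the same test 3 had an unadjusted p under 0.05 in either direction, against 4186 of all 11339 genes, and limma-voom called 0 lower. The most abundant of these, *Cryab*, a crystallin, had the lowest log2 fold change at -0.19 (limma adjusted p = 0.0931, and 0.0222 without WT sample b, within a range of 5.88e-05 to 0.314 over the alternatives). *Cryaa*, a lens crystallin with the highest log2 fold change of that list, was at an RPKM of 6.54, 6.61 and 7.51 in WT and 32.1, 12.4 and 7.28 in *Mll1KO* samples a, b and c, so that *Mll1KO* sample a stood apart (log2 fold change 0.97, limma adjusted p = 0.0949, and 0.0146 without *Mll1KO* sample c, but 0.42 and 0.107 without *Mll1KO* sample a, within a range of 0.0146 to 0.198 over the alternatives). The part of these tissues in the values of the visual cycle genes was not tested.

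*Retsat* (ENSMUSG00000056666, chr6:72598475-72608425, plus strand) encodes retinol saturase, which converts all-trans-retinol to a dihydroretinol and is expressed in many tissues. Its RPKM was 3.07, 2.77 and 2.96 in WT and 3.27, 3.79 and 3.32 in *Mll1KO* samples a, b and c. The genotypes did not overlap, and *Mll1KO* sample b was the highest. The log2 fold change of 0.18 with an SE of 0.06 (95% interval 0.04 to 0.32) missed the threshold after adjustment (limma adjusted p = 0.064). It passed with TMM, with median-ratio scaling and with the pigment term (limma adjusted p = 0.0479, 0.047 and 0.0377, within a range of 0.0377 to 0.480 over the alternatives), and was -0.048 with rod scaling, above the median of all genes. At least 194 reads of *Retsat* stood behind each value, and 18.4% of its exon bases also lie in exons of the antisense gene *Gm45053*, whose reads could not be told apart from those of *Retsat* without strand information.

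Other genes that store, oxidise, carry or respond to retinoids were listed by textbook function, 51 in all without the 9 above, of which 25 were measured. By limma 2 were called higher and 3 lower, so that 5 of 25 passed, against 23.3% of all genes, with a median log2 fold change of -0.02, against -0.03 over all genes. With rod scaling 20 of the 25 were lower by limma, against 82.3% of all genes called lower under that scaling.

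Among 7 measured dehydrogenases and reductases of 17 listed, 1 was called higher and 0 lower by limma, against 8.81% and 14.5% of all genes. By the same test 1 had an unadjusted p under 0.05 in either direction, against 4186 of all 11339 genes, and limma-voom called 0 lower. The called gene, *Dhrs7*, a short-chain dehydrogenase/reductase that can act on all-trans-retinal, was at an RPKM of 15.1, 14.7 and 14.4 in WT and 16.2, 20.5 and 21.2 in *Mll1KO* samples a, b and c. *Mll1KO* sample a was nearest to WT, without overlap. The log2 fold change was 0.36 with an SE of 0.08 (limma adjusted p = 0.0138), and without *Mll1KO* sample c it was 0.29 (limma adjusted p = 0.0547, within a range of 0.000341 to 0.386 over the alternatives). *Dhrs3*, a retinal reductase and the most abundant of this list, was at 33.7 ± 0.588 in WT against 33.6 ± 1.37 in *Mll1KO* (SD, n = 3 each).

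Of 14 carriers and transporters 6 were measured, and 1 was called higher and 2 lower, against 8.81% and 14.5% of all genes. *Abca4*, which encodes the flippase that clears retinal adducts from the disc membranes of photoreceptors, was the most abundant of the carriers, at an RPKM of 128, 137 and 135 in WT and 165.6, 162 and 163 in *Mll1KO* samples a, b and c. The genotypes were well apart, with a log2 fold change of 0.29 with an SE of 0.04 (limma adjusted p = 0.00093), which was -0.0062 with rod scaling. *Crabp1*, which binds retinoic acid in the cytoplasm, was at 41.6, 41.0 and 41.0 in WT and 28.5, 22.6 and 27.7 in *Mll1KO* samples a, b and c. It was lower in all *Mll1KO* samples than in all WT samples, by a log2 fold change of -0.64 with an SE of 0.07 (limma adjusted p = 0.000358).

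Of 6 storage and isomerisation genes 4 were measured, and by limma 0 were called, against 23.3% of all genes. By the same test 0 had an unadjusted p under 0.05, against 4186 of all 11339 genes, and limma-voom called 0. *Rgr*, an opsin of the RPE and Müller glia that forms 11-cis-retinal in light and the most abundant of these, was at an RPKM of 17.0, 13.5 and 20.4 in WT and 15.1, 35.5 and 16.6 in *Mll1KO* samples a, b and c. It followed the order of the pigment sum within each genotype, with *Mll1KO* sample b apart from the other samples. Its log2 fold change was 0.30 with an SE of 0.27 (limma adjusted p = 0.457), and it was -0.076 without *Mll1KO* sample b and 0.51 without *Mll1KO* sample a. With the pigment term it was 0.67 and passed the threshold (limma adjusted p = 0.0339, within a range of 0.0339 to 0.960 over the alternatives).

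Of 14 genes of retinoic acid synthesis, breakdown and reception 8 were measured. By limma 0 were called higher and 1 lower, against 8.81% and 14.5% of all genes. By the same test 4 had an unadjusted p under 0.05 in either direction, against 4186 of all 11339 genes, and limma-voom called 0 higher. *Rarb*, a retinoic acid receptor whose own transcription retinoic acid is known to raise, was at an RPKM of 2.38, 2.18 and 2.70 in WT and 1.67, 2.12 and 1.69 in *Mll1KO* samples a, b and c. The lowest WT sample was close to the highest *Mll1KO* sample, and the fewest reads of *Rarb* in a library were 92. The log2 fold change was -0.28 with an SE of 0.08 (limma adjusted p = 0.0311), and the call was lost without WT sample a, WT sample c, *Mll1KO* sample a or *Mll1KO* sample c (by limma, adjusted p = 0.0732, 0.0966, 0.0843 and 0.105, within a range of 0.000139 to 0.105 over the alternatives). Its log2 fold change was between -0.35 and -0.22 with each library left out in turn. In addition, 38.4% of the exon bases of *Rarb* lie in exons of the neighbouring genes *Top2b* and *Gm48162* on the opposite strand. *Aldh1a1*, a retinaldehyde dehydrogenase and the most abundant of this list, was at 17.7, 21.2 and 20.8 in WT and 16.1, 17.8 and 17.5 in *Mll1KO* samples a, b and c, overlapping only at WT sample a. Its log2 fold change was -0.20 (limma adjusted p = 0.0591), and it passed the threshold without WT sample a at -0.28 and with the replicate block (limma adjusted p = 0.0106 and 0.0213, within a range of 0.000163 to 0.192 over the alternatives).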

How the data were processed

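RNA from 3 *Mll1KO* and 3 WT samples was read as single-end reads of 50 bases. By the submitters' processing notes and the study's methods, the authors aligned the reads with STAR 2.0.4b to the mouse genome (mm10, written as GRCh38.76 in the methods), counted them with featureCounts 1.45 of Subread and dropped genes that did not exceed a CPM of 5 in 5 or more samples. RPKM of each gene and library, as deposited, were derived from these counts by the authors. Fold changes, mean CPM, p-values and FDR of the authors' own comparison with edgeR stand in the same table and were not used (the edgeR version is 3.17.9 in the notes, and another in the methods).

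The 11404 lines hold 11339 genes, as 59 IDs are repeated. RPKM was turned back into reads by finding the total of each library and the length of each gene at which 100% of genes are whole numbers of reads (tolerance 0.02 reads), with 98.4 to 98.5% of reads on the genes of the table. More than 1 length was possible for 47 genes. Coordinates and exon overlaps came from GENCODE vM21 (GRCm38), and promoters from RefSeq (GRCm38.p6). The strand setting of the counting is not given in the sources used here.

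Because the unit is RPKM, the authors' edgeR test was not used. Instead, limma 3.58.1 in R 4.3.3 was fitted to log2(RPKM + 1) of all genes, with a variance trend, no covariates, Benjamini-Hochberg adjustment and a threshold of 0.05. The fit was tested on simulated reads. The simulated log2 changes were larger than those of the visual cycle genes with library totals, so that this test does not cover effects of their size. Alternatives were pseudocounts of 0.1 and 5, limma-voom on the recovered reads, TMM, median-ratio and rod-gene scaling, a replicate block, a mean RPKM of at least 1 and each library left out in turn. A pigment term and the omission of the 2 libraries with the most pigment RNA were added after seeing the data. Python 3.11.15 with numpy 2.4.6, pandas 2.3.3 and matplotlib 3.10.9 made the tables and figures.

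The named genes were every measured member, *Kmt2a*, called genes and the most abundant gene (by WT mean) of each pathway list, the most abundant, highest and lowest gene of each marker list, and the 3 genes nearest in pattern to the members with the largest increase and decrease. Not every gene that this rule picks is named in the text. *Dct* and *Tyrp1* were named after their values were seen. The members and lists were chosen with earlier results of these data known.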

Additional observations from a re-analysis of the deposited data

How the results depend on the processing

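With libraries scaled to an equal sum over rod genes, which lowers all genes by construction, 9567 genes were called, 232 higher and 9335 lower, against 2643, 999 and 1644 with library totals. Of the members 0 were then higher and 5 lower, and of the 25 pathway genes 0 higher and 20 lower, 20 in all. Only genes named in the report were followed one by one. Among these, the log2 fold changes that turned were those of *Rlbp1* (-0.20), *Rdh12* (-0.13), *Rdh8* (-0.14), *Rdh5* (-0.085), *Retsat* (-0.048), *Abca4* (-0.0062) and *Rrh* (-0.24), all above the median of all genes of -0.29, while the pathway genes with a higher mean fell from 9 to 2 and all genes with one from 4574 to 614. Of the named genes, TMM and median-ratio scaling turned *Dhrs3* (0.025 and 0.029) and *Gnb3* (0.017 and 0.021), which lay near 0 and were not called, and the pathway genes with a higher mean rose from 9 to 13 and 14. *Kmt2a*, *Crabp1*, *Rbp3* and *Rdh10* kept their direction in all 16 alternatives.

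Leaving out 1 library at a time, with fewer samples in the fit, gave 1704 to 2536 called genes, of which 1030 to 1559 were lower. The members called ranged from 1 to 3, with 1 to 2 higher and 0 to 2 lower, and the pathway genes from 2 to 6, with 1 to 2 higher and 1 to 4 lower. Log2 fold changes of named genes that turned ranged from -0.033 to 0.31 for *Rdh5*, -0.39 to 0.013 for *Stra6*, -0.076 to 0.51 for *Rgr*, -0.037 to 0.098 for *Rrh*, -0.023 to 0.028 for *Dhrs3*, -0.043 to 0.0091 for *Gnb3* and -0.98 to 0.14 for *Tyrp1*. The causes were not tested.

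Of the alternatives added after seeing the data, the pigment term called 2024 genes, 860 higher and 1164 lower. With it 3 members were higher (*Rbp3*, *Rdh5* and *Retsat*) and 0 lower, and 3 pathway genes were higher and 2 lower. Of all genes 7.58% were called higher and 10.3% lower in that fit, and of the 11 RPE markers 4 were called higher and 1 lower. The pigment term turned, of the named genes, *Stra6* (0.071) and *Ttr* (0.025), where *Pmel*, *Dct* and *Tyrp1*, which make up the term, were not followed. Without the 2 libraries highest in pigment RNA 1662 genes were called, 727 higher and 935 lower. There 1 member was higher and 2 lower, and 1 pathway gene was higher and 4 lower. Among the named genes *Dhrs3* (0.039) and *Rrh* (-0.0064) turned.

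The replicate letters showed no pairing of the samples. Deviations from the genotype means correlated at -0.039, -0.19 and -0.0071 between WT and *Mll1KO* samples a, b and c. No sample correlated best with its own letter. These correlations cannot exclude a batch shared by letter, since the deviations within a genotype are not independent. With the letter as a replicate block 2242 genes were called, 895 higher and 1347 lower, with 3 members (2 higher, 1 lower) and 5 pathway genes (2 higher, 3 lower), and *Rdh8* and *Rarb* were not called (limma adjusted p = 0.0661 and 0.0648), while *Aldh1a1* was called lower (limma adjusted p = 0.0213). Pseudocounts of 0.1 and 5, limma-voom and the filter on mean RPKM called the same number of members, 4. Of all genes they called 23.4%, 23.3%, 25.6% and 23.2%. TMM and median-ratio scaling each called 5 members, 4 higher and 1 lower, against 21.4% and 21.2% of all genes.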
